A study of Mus musculus with 7 samples.

Results

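Proliferating cells of mouse thyroid follicular cell organoids (TFCOs) were examined as the organoid cells in which several genes of late cell cycle were detected. Members were chosen by measured values: an organoid cell of at least 3000 unique molecular identifiers (UMIs, each standing for 1 captured mRNA molecule) was a member if at least 4 of 9 rule genes, Mki67, Top2a, Ccnb2, Ccna2, Ube2c, Birc5, Cenpf, Tpx2 and Cenpa, had a UMI. This gave 180 members among 1230 organoid cells of that depth, out of 2590 cells in the series. Cells of the same sample with at most 1 of the 9 genes, 838 in all, served as comparison cells, and 212 cells with 2 or 3 of the genes were in neither class.

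In G2 and mitosis, the kinase Cdk1 is switched on by B-type cyclins. Chromosomes are then condensed, the nuclear lamina is taken apart and a spindle of microtubules pulls the chromosomes to both poles through their kinetochores. The anaphase-promoting complex ends mitosis by marking cyclins and the securin that guards cohesin for destruction, and cytokinesis separates the daughter cells. Follicular cells of the adult thyroid gland divide rarely and make thyroglobulin, the protein on which thyroid hormone is formed.

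The cells came from wild-type C57BL/6 mice and received no treatment. The 3 late passage and 2 early passage organoid samples were grown in basement membrane extract with R-spondin 3 conditioned medium, the TGF-beta receptor inhibitor A83-01, forskolin, EGF and FGF10, so both groups share these growth factors, and 2 samples of primary thyroid tissue were not cultured. Live cells were sorted into 384-well plates and sequenced by SORT-seq, which counts UMIs near the 3′ end of mRNAs. The mice's age and the passage numbers are not given in the labels used here, and nothing there ties a late sample to an early line. The series text states 2 biological replicates, while the labels give 3 late samples. Whether some samples share a mouse or a line therefore cannot be told. The p-values treat the samples as independent and measure only the spread between them.

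Several features of the libraries touch the values that follow. Members were deeper than comparison cells in all 5 organoid samples, with median depths of 9283 to 19886 UMIs against 6566 to 11638, a ratio of 1.29 to 2.42. Late sample 2 and early sample 1 supplied 130 of the members. The 180 members carried 151 different well barcodes, and all 384 barcodes occurred in at least 2 organoid samples. Genes detected after thinning each cell to 3000 UMIs had medians of 1859 to 1956 in members and 1782 to 1848 in comparison cells. Endothelial, mural, immune, stromal, C cell and erythroid marker lists summed to at most 1.96 UMIs per 10000 in any class of any organoid sample. This highest value was that of the endothelial list, which summed to 43.5 and 53.8 in tissue samples 1 and 2. The erythroid list summed to at most 0.0029 in organoid classes and to 78.7 and 1.14 in the tissue samples. Within the lists Cldn5, C1qa, C1qb, Hba-a1, Hba-a2 and Hbb-bs were at 0 in both organoid classes. Others were detected, Pecam1 averaging 0.596 to 1.18 in members and 0.412 to 1.02 in comparison cells.

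The share of members differed widely between samples of the same passage. It was 5.83% in late sample 1 (14 of 240 cells, exact 95% interval 3.23 to 9.59), 21.6% in late sample 2 (75 of 348, 17.3 to 26.2) and 9.95% in late sample 3 (22 of 221, 6.34 to 14.7). In early sample 1 it was 26.8% (55 of 205, 20.9 to 33.4) and in early sample 2 it was 6.48% (14 of 216, 3.59 to 10.6). The 2 highest shares belonged to 1 late and 1 early sample, so the passages overlapped. The mean was 12.4% ± 8.15 in late samples (SD, n = 3) and 16.7% ± 14.4 in early samples (SD, n = 2), a difference of −4.21 percentage points (exact two-sided permutation test, p = 0.6, where 10 splits allow no p under 0.1).

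**Figure D1:**
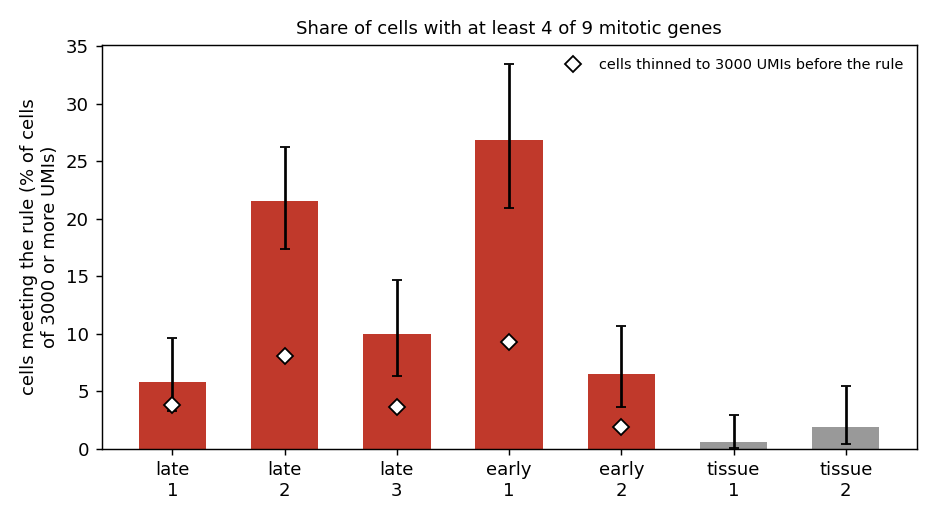
Share of cells with at least 4 of the 9 rule genes, as a percentage of cells of 3000 or more UMIs, in each sample (bars; error bars, exact 95% intervals for counting error), with the share after thinning every organoid cell to 3000 UMIs (diamonds). Late sample 2 and early sample 1 stand above the other organoid samples in both measures, at 8.05% and 9.27% after thinning.

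Thinning lowered the shares to 3.75%, 8.05% and 3.62% in late samples 1 to 3 and to 9.27% and 1.85% in early samples 1 and 2, and it left 68 cells that met the rule. At equal depth the shares were lower, and the same samples stayed highest. In primary tissue 1 of 186 cells (0.538%, exact 95% interval 0.0136 to 2.96) and 3 of 158 cells (1.90%, 0.393 to 5.45) met the rule. Of these 4 tissue cells, a pair in tissue sample 2 held 151110 and 268847 UMIs, against a median of 4717 in that sample's cells with at most 1 rule gene. The pair held 3724 and 4066 UMIs of Tg and 39 and 145 of Cd74, an antigen presentation gene of immune cells. Another held 289 UMIs of Cd74 and 50 of Tg, and the cell of tissue sample 1 held 0 of Cd74 and 3 of Tg. Tissue cells were not used further.

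The rule genes describe how the members were found and carry no test. Mki67, a marker of cycling cells, averaged 2.22 to 2.79 UMIs per 10000 in members of the 5 samples and 0.0226 to 0.0739 in comparison cells. Cenpf, a kinetochore protein, averaged 1.92 to 3.28 against 0.0317 to 0.0885, and Ccna2, cyclin A2, averaged 0.389 to 1.65 against 0 to 0.0689. Mki67 was detected in 142 members (78.9%), Ccnb2 in 141 and Ccna2 in 93 (51.7%). On either side of the threshold, the 65 cells with 3 rule genes had a median summed level of mitotic genes of 18.6 UMIs per 10000 and the 40 cells with 4 had 27.7, with median Tg levels of 64.1 and 65.6.

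Mitotic and replication genes are often grouped by short DNA letters before their starts, and 3 genes described below show them. Bases before the RefSeq start are given from GRCm38.p6, 5′ to 3′ on the gene's strand, without any base that GENCODE places in a transcript. Capitals mark TTTGAA, the letters of the cell cycle homology region, and CCAAT, the letters of the box bound by NF-Y, or its reverse complement ATTGG, in Cdk1 (chr10:69352939-69353022, minus strand) and Cdc20 (chr4:118437353-118437453, minus strand). In Mcm6 (chr1:128359706-128359815, minus strand) they mark CCAAT or ATTGG and the E2F letters TTTGGCGC, with a second match on the other strand, GCGCGAAA, overlapping the leftmost of them.
Cdk1: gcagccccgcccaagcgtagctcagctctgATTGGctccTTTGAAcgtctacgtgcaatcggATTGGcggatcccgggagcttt
Cdc20: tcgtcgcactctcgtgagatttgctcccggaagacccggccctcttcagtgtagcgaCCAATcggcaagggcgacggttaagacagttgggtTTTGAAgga
Mcm6: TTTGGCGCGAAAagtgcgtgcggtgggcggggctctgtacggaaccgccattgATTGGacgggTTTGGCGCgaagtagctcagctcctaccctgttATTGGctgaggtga

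In the 250 bases before the start, read on both strands, TTTGAA was found for 14 of 45 matched mitotic list genes that rose in members (31.1%), for 13.4% of the 6872 tested genes with a promoter and in 16.0% of all 32851 windows. CCAAT was found for 31 of the 45 (68.9%) and alike for 14 of 20 matched replication genes that rose (70.0%). It was found for 40.5% of tested genes and in 33.8% of windows. E2F letters, searched as TTTGGCGC, TTTCCCGC, TTTGCCGC or TTTCGCGC, were found for 6 of 20 matched replication genes that rose (30.0%) and for 4 of the 45 mitotic genes (8.89%), against 3.93% of tested genes and 1.86% of windows. Counted by gene rather than by window, the shares of all 27025 genes were 18.3% for TTTGAA, 37.5% for CCAAT and 2.16% for E2F letters. These matches describe letters and carry no test.

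For every other gene, the mean of UMIs per 10000 was taken over the members and over the comparison cells of each sample, and the difference was tested on log2(value + 0.5), with the sample as a block, in limma. Of 8993 genes tested, 365 were higher in members (4.06%) and 181 were lower (2.01%) at an adjusted p below 0.05. The counts of list genes given below are to be read beside these shares. The difference had the same sign in all 5 samples for 522 of these 546 genes. As the test favours such genes, this count describes the calls and adds no support. The median difference of all tested genes was 0.0038. Member and comparison values of the 5 samples did not overlap for 4.75% of all tested genes, including 305 of the 546 called. With comparison cells matched in depth 231 genes were higher and 75 lower. The match was incomplete in early sample 1, where the matched cells had a median of 11059 UMIs against 19886 in members, and without that sample the matched comparison called 172 higher and 46 lower. Without matching, without late sample 3 or without early sample 1 the calls fell to 276 and 356. Of the genes named by rule below, 93 were called, and 79 of them passed against cells matched in depth, apart from early sample 1, the exceptions being Plk1, Cdkn1a, Banf1, Lmnb1, Ccnd2, Krt18, Nop56, Nhp2, Ncl, Sqle, Pdia4, Cct6a, Elobl and Mest. With the 4 matched samples alone 72 passed, Nkx2-1, Slc5a5, Ncaph, Dkc1, Cse1l, Idi1, Acat2 and Ctse being lost as well and Cct6a passing. Subtracting the median log2 level of the tested genes within each class of each sample moved the share of calls that were higher from 66.8% to 56.0%.

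Genes of the mitotic machinery outside the rule rose in members. As the cells were chosen on mitotic genes, this checks the choice of cells and is no separate finding. Of 82 genes on lists of G2 and mitosis regulators, kinetochore proteins and spindle and cytokinesis proteins, 56 passed the filter on low values, many of them only through their level in members, and 50 rose while none fell, with a median difference of 1.01. Restricting the test to genes that passed in comparison cells alone left 6 regulators, of which 6 rose, 3 kinetochore genes, of which 1 rose, and 7 spindle genes, of which 4 rose.

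Cdk1, the kinase that drives entry into mitosis, averaged 1.51, 1.35 and 1.84 UMIs per 10000 in members of late samples 1 to 3 and 1.67 and 1.32 in those of early samples 1 and 2. In comparison cells it averaged 0.109, 0.201, 0.165, 0.337 and 0.143 in the same order. Every member value lay above every comparison value, and the difference was 1.56 ± 0.13 on the log2 scale (SE, adjusted p = 1.3e-06). Such separation, in either direction, was found for 4.75% of all tested genes. With a mean of 0.191 UMIs per 10000 in comparison cells, Cdk1 entered the test only through its level in members.

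Ccnb1, cyclin B1, which activates Cdk1, averaged 0.247, 0.841, 1.51, 0.660 and 0.977 UMIs per 10000 in members and at most 0.0614 in comparison cells. The classes did not overlap, although late sample 1 was several-fold below late sample 3. The difference was 1.27 ± 0.16 (adjusted p = 0.00016). Cdc20, which activates the anaphase-promoting complex, differed by 1.06 ± 0.13 (adjusted p = 9e-05), again without overlap. Ccnb1 and Cdc20, with mean levels of 0.0311 and 0.0337 UMIs per 10000 in comparison cells, entered the test only through members.

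Plk1, a kinase of centrosome maturation and chromosome separation, was a weaker case. Its members averaged 0.902, 0.792, 1.42, 1.44 and 0.890 UMIs per 10000, and its comparison cells 0.456, 0.397, 0.525, 0.714 and 0.916. In early sample 2 the classes were level. The difference of 0.53 ± 0.14 passed the test (adjusted p = 0.035), but not against depth-matched comparison cells (adjusted p = 0.051).

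Among the remaining regulators the largest differences were those of Cdca3, a protein needed for entry into mitosis (1.66 ± 0.13), and Mad2l1, which holds the spindle checkpoint (1.51 ± 0.13). Of the regulators tested 15 of 16 rose, all but Mastl (0.35). Among kinetochore genes 10 of 13 rose, led by Cenpe, a motor that links chromosomes to microtubules (1.45 ± 0.18), and by Nuf2 (1.11), Spc25 (1.06) and Spc24 (1.04), which are subunits of the Ndc80 complex. Cenpe averaged 1.40, 1.83 and 1.31 UMIs per 10000 in members of the late samples and 1.29 and 0.221 in those of the early samples, so early sample 2 stood low. Cdca3, Cenpe, Nuf2, Spc25 and Spc24, with mean levels of at most 0.0834 in comparison cells, entered the test only through members.

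Spindle and cytokinesis genes rose in 25 of 27 cases, with Numa1 (0.06) and Cit (0.25) not passing. Ckap2, a protein of spindle microtubules, averaged 2.12, 2.23, 3.06, 2.23 and 2.13 UMIs per 10000 in members against 0.124 to 0.147 in comparison cells. The samples lay close together in comparison cells, while late sample 3 stood above the others in members. The difference was 2.17 ± 0.12 (adjusted p = 1.1e-07). Knstrn differed by 1.72, Hmmr by 1.63 and Cep55, which acts in the final cut between daughter cells, by 1.62. Ckap2, Knstrn, Hmmr and Cep55, with mean levels of 0.131, 0.101, 0.0798 and 0.101 in comparison cells, entered the test only through members.

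Of 13 condensin and cohesin genes tested, 8 rose, led by Rad21, the cohesin subunit that is cleaved at anaphase (1.14 ± 0.12), and by the condensin subunits Smc2 (1.12), Ncapd2 (1.07) and Ncaph (0.99). The cohesin subunits Smc1a (0.29), Smc3 (0.39), Stag1 (0.09) and Stag2 (−0.14) and the condensin subunit Ncaph2 (0.34) did not pass. Among the 8 of these genes that passed the filter in comparison cells alone 2 rose, since Smc2, Ncapd2 and Ncaph among others passed it only through members, and without members high for replication genes, described below, 3 of 11 rose. Of 8 nuclear envelope genes 4 rose: Tmpo, which encodes lamina-associated proteins (1.43 ± 0.14), Lbr, the lamin B receptor (0.88), Banf1 (0.68) and Lmnb1, lamin B1 (0.41). Lmna, which encodes lamins A and C, had a difference of 0.08 and did not pass. Lmnb1, with a mean level of 0.117 in comparison cells, entered the test only through members and was called in 6 of 21 alternatives.

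Tubulins and stathmin supplied the largest difference of any list. Stmn1, stathmin, which destabilises microtubules, averaged 9.61, 4.48 and 6.80 UMIs per 10000 in members of late samples and 4.09 and 4.40 in those of early samples. Its comparison cells averaged 0.415 to 0.742. All member values were several-fold higher, with a difference of 2.49 ± 0.17 (adjusted p = 4.3e-07). Tubb4b (1.98), Tuba1b (1.61), Tubb5 (1.40), Tubb6 (1.00) and Tuba1c (0.88) rose with it, whereas Tuba4a (0.21), Tubb2a (0.26) and the centrosomal Tubg1 (0.33) did not pass. Tubb6, at 0.0736 to 0.184 UMIs per 10000 in comparison cells, entered the test only through members.

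Chromatin proteins rose in 17 of 24 cases and none fell, while 4.06% of all tested genes rose. H2az1, which encodes the histone variant H2A.Z, averaged 14.5, 8.12, 10.7, 7.73 and 7.37 UMIs per 10000 in members and 2.45, 2.07, 1.97, 1.34 and 1.93 in comparison cells. The lowest member value was above the highest comparison value, and the difference was 2.03 ± 0.12 (adjusted p = 1.1e-07). Hmgb2, a DNA-bending protein (2.01 ± 0.14), and the nucleosome-binding proteins Hmgn2 (1.41) and Nucks1 (1.25) followed. The heterochromatin proteins Cbx1 (0.25), Cbx3 (0.03) and Cbx5 (0.04) did not pass.

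**Figure D2:**
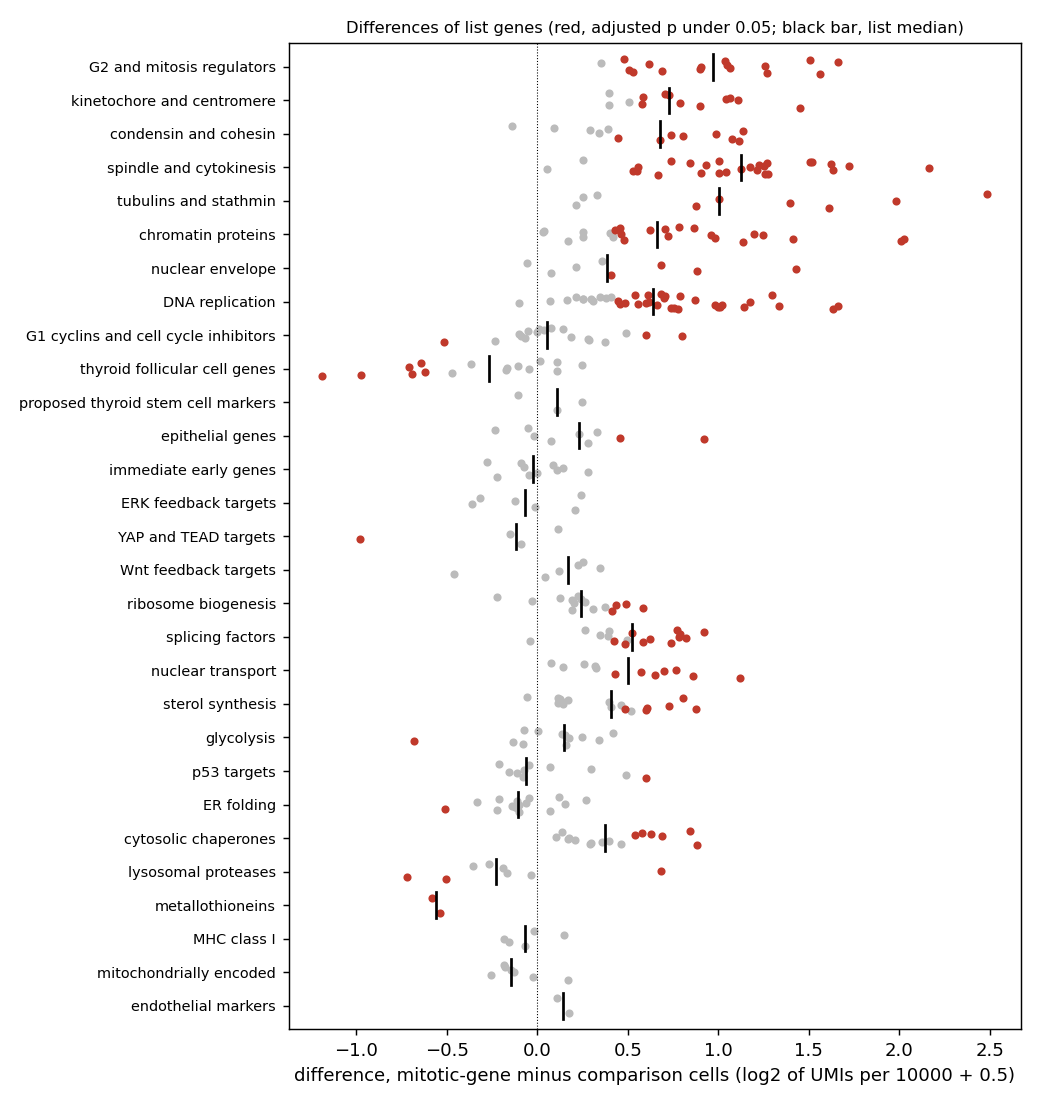
Difference between mitotic-gene cells (the members) and comparison cells on the log2(UMIs per 10000 + 0.5) scale for every tested gene of each list (points; red, adjusted p under 0.05) with the list median (black bar). Mitotic, tubulin, chromatin and replication lists lie to the right of 0, and the red points of the thyroid list, led by Tg at −1.19, lie to the left.

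Replication genes were raised too, which goes against a strict reading of the cells as being in G2 or mitosis, and the members are therefore called mitotic-gene cells here. Of 38 DNA replication genes tested, 27 rose and none fell (median 0.64), and 8 of the 19 that passed in comparison cells alone did so. Pcna, the sliding clamp of DNA polymerases, averaged 4.99, 2.70, 3.82, 2.38 and 3.68 UMIs per 10000 in members and 0.657, 0.791, 1.01, 0.816 and 0.569 in comparison cells. The classes did not overlap, and the difference was 1.63 ± 0.15 (adjusted p = 7.3e-06). Mcm6, a subunit of the replicative helicase, differed by 1.00 ± 0.16 (adjusted p = 0.00097), Rrm2 and Rrm1, the subunits of ribonucleotide reductase, by 1.66 and 1.34, and Pclaf, which binds Pcna, by 1.30. Rrm2, Rrm1 and Pclaf, with mean levels of 0.112, 0.104 and 0.0716 UMIs per 10000 in comparison cells, entered the test only through members. The subunits Rfc1 (0.07), Pola1 (0.30), Pold3 (0.25) and Pole (0.25) did not pass.

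Individual members ranged widely between replication and mitosis. A cell was called high for a group of genes if its summed level exceeded the 95th percentile of the comparison cells of its own sample. Of 180 members, 71 were high for the 3 mitotic lists alone, 50 for both mitotic and replication genes, 5 for replication genes alone and 54 for neither. By sample, 13 of 14, 48 of 75 and 15 of 22 members of the late samples and 34 of 55 and 11 of 14 of the early samples were high for mitotic genes. For replication genes the counts were 6, 21, 10, 12 and 6. These are ranges of a score and not cell types.

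The lists that set these ranges include Ccnb1 and Pcna, so their detection in each range follows from the choice and is a description. Ccnb1 was detected in 43 of the 71 members high for mitotic genes alone (60.6%), in 22 of the 50 high for both (44%) and in 2 of the 54 high for neither (3.70%). Pcna was detected in 31 (43.7%), 47 (94%) and 27 (50%) of the same cells. The 54 cells high for neither had a median of 5 rule genes at a median depth of 17721 UMIs, whereas those high for mitotic genes alone had 7 rule genes at 11451 UMIs. Median Tg was 47.9, 39.0 and 50.7 UMIs per 10000 in the members high for mitotic genes alone, for both and for neither.

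**Figure D3:**
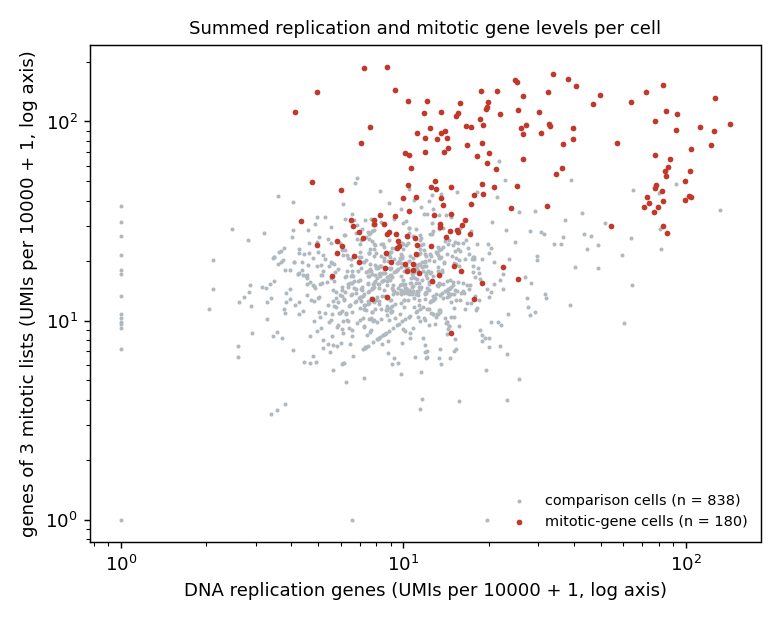
Summed level of the DNA replication list (horizontal axis) and of the 3 mitotic lists (vertical axis) in each organoid cell, as UMIs per 10000 plus 1 on log axes, for the 180 mitotic-gene cells (red) and the 838 comparison cells (grey). Many members lie above the comparison cells with low or high replication levels, and others, including the 54 high for neither, lie within the grey cloud.

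When members high for replication genes were left out, 125 cells remained. Cdk1 (0.76, adjusted p = 0.042), Ccnb1 (1.45, adjusted p = 0.001), Cdc20 (1.14), Ckap2 (2.35) and Stmn1 (2.42) still passed. Plk1 (0.28, adjusted p = 0.51), Ncaph (0.33, adjusted p = 0.45), Tubb5 (0.55, adjusted p = 0.21), Lbr (0.67, adjusted p = 0.053) and Banf1 (0.55, adjusted p = 0.12) did not, and 4 of 11 kinetochore genes, 8 of 22 chromatin genes and 1 of 7 nuclear envelope genes were called. Pcna (−0.21) and Mcm6 (−0.23) changed sign and did not pass, as the removal of cells by these genes sets their values. The number of genes called fell to 109 higher and 57 lower.

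Some genes of thyroid function, Tg among them, were lower in mitotic-gene cells. Of 24 listed thyroid follicular genes 16 were tested, 6 fell and none rose, with a median difference of −0.27, and 3 of 16 fell without members high for replication genes. In the main test 2.01% of all tested genes fell. Tg, thyroglobulin, averaged 61.5, 61.8 and 56.1 UMIs per 10000 in members of late samples 1 to 3 and 51.5 and 33.6 in those of early samples 1 and 2. In comparison cells it averaged 135, 81.5, 170, 81.8 and 153. Every member value was below every comparison value, and the difference was −1.19 ± 0.17 (adjusted p = 0.00047). The classes were separated, in either direction, for 4.75% of all tested genes.

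The fall of Tg was uneven. It was smallest in late sample 2 (−0.40) and early sample 1 (−0.66), the samples with the most members and the lowest Tg in comparison cells, and largest in early sample 2 (−2.17). Whether depth or the share of cycling cells has a part in this was not tested. Against comparison cells matched in depth, incompletely in early sample 1, the difference was −1.23 (adjusted p = 0.001), without that sample it was −1.37 (adjusted p = 0.000585), and without members high for replication genes it was −1.11 (adjusted p = 0.0014). Among all alternatives tried, Tg missed the threshold where low genes were not filtered (adjusted p = 0.068).

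Slc5a5, the sodium iodide symporter, fell by 0.69 on the log2 scale (adjusted p = 0.062 in the 4 samples matched in depth), Cdh16, a cadherin, by 0.64, and Tshr, the receptor of thyroid-stimulating hormone, by 0.62, the last no longer passing without members high for replication genes (adjusted p = 0.061).

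Among the transcription factors that define the lineage, Nkx2-1 averaged 3.32, 2.10, 1.79, 1.74 and 1.55 UMIs per 10000 in members and 5.42, 3.06, 3.30, 3.40 and 3.38 in comparison cells. It was lower in members of every sample, by 0.45 to 0.92, and the difference was −0.71 ± 0.11 (adjusted p = 0.001). Without members high for replication genes it was −0.48 and did not pass (adjusted p = 0.13), nor did it in the 4 samples matched in depth (−0.53, adjusted p = 0.14). Pax8, which acts with Nkx2-1 on thyroid genes, averaged 4.19 to 4.58 in members and 3.85 to 6.36 in comparison cells, with a difference of −0.17 ± 0.11 (adjusted p = 0.47). Foxe1 (−0.11 ± 0.12, adjusted p = 0.71) and Hhex (0.25 ± 0.13, adjusted p = 0.35) did not pass either, and Duox2 (0.11), Iyd (−0.17), Glis3 (−0.36) and Slc26a7 (−0.47) were likewise not called.

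**Figure D4:**
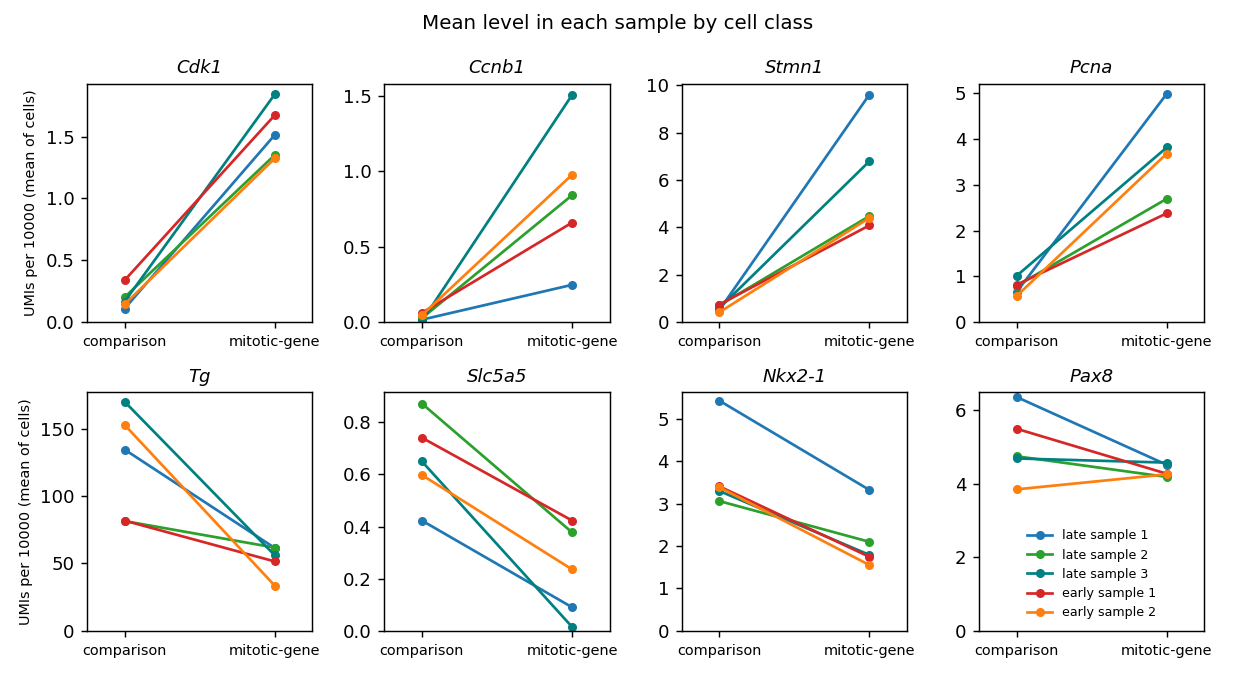
Mean level in comparison cells and mitotic-gene cells of each organoid sample, as UMIs per 10000 (1 line per sample, vertical axes from 0), for 8 genes. Cdk1, Ccnb1, Stmn1 and Pcna rise in every sample, Tg, Slc5a5 and Nkx2-1 fall in every sample, and Pax8, which did not pass the test, stays between 3.85 and 6.36.

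Median Tg was 110 UMIs per 10000 in the 516 cells with none of the rule genes and 33.5 in the 28 cells with all 9, pooled over samples that contribute unequally, and median depth was 7567 and 21746 UMIs. By sample, mean Tg in cells with no rule gene was 137, 76.8, 183, 87.7 and 165 and in cells with 6 to 9 it was 63.5, 46.8, 51.0, 44.5 and 34.8. The levels between these ends were not steadily ordered in every sample, and in late sample 2 mean Tg was 76.8, 86.7, 77.1, 83.0 and 46.8 with 0, 1, 2 to 3, 4 to 5 and 6 to 9 genes. Mean Tg thus ran from 34.8 to 63.5 in cells with 6 to 9 rule genes and from 76.8 to 183 with none. The range was narrower in UMIs per 10000, at lower levels. Cells with 6 to 9 genes numbered 8, 44, 11, 33 and 7 in the 5 samples. These values use the rule's own genes as the scale and carry no test.

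**Figure D5:**
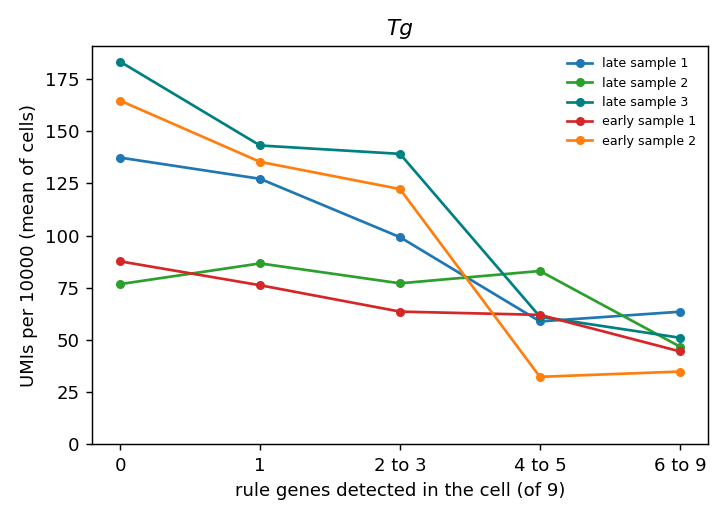
Mean Tg level, as UMIs per 10000, in cells of each organoid sample grouped by how many of the 9 rule genes were detected. Tg ends between 34.8 and 63.5 in cells with 6 to 9 rule genes in all 5 samples, after starting between 76.8 and 183 in cells with none.

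Regulators of G1 and cell cycle arrest showed few calls. Of 18 tested, Rbl1, a pocket protein related to Rb, rose (0.80 ± 0.15, adjusted p = 0.0037), Cdkn1a, the Cdk inhibitor p21, rose (0.60 ± 0.14, adjusted p = 0.018) and Ccnd2, cyclin D2, fell (−0.52 ± 0.14, adjusted p = 0.041). Cdkn1a averaged 1.42, 0.863, 0.309, 0.739 and 0.608 UMIs per 10000 in members and 0.596, 0.392, 0.307, 0.228 and 0.133 in comparison cells. Late sample 3 was level between the classes, and against depth-matched cells Cdkn1a did not pass (adjusted p = 0.097). Nor did Ccnd2 (adjusted p = 0.26). Ccnd1, cyclin D1, which growth factors induce, had a difference of 0.37 ± 0.13 (adjusted p = 0.11) and Cdkn1b, the inhibitor p27, one of −0.10 ± 0.13 (adjusted p = 0.75). Of 10 p53 target genes, only Cdkn1a was called, and Mdm2 (−0.08) and Ccng1 (0.49) were not. Without members high for replication genes no gene of the G1 and arrest list was called, with Rbl1 at 0.28 (adjusted p = 0.55) and Cdkn1a at 0.18 (adjusted p = 0.81).

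Lists that read growth factor pathways held almost no calls. None of 10 immediate early genes (Fos −0.22, Egr1 0.28), none of 6 ERK feedback targets (Dusp6 0.21, Etv5 −0.32) and none of 6 Wnt feedback targets (Lgr5 0.04, Znrf3 0.35) was called. Of 4 YAP and TEAD targets tested, Ccn2, a secreted matricellular protein, fell (−0.98 ± 0.12, adjusted p = 0.00012) and Ccn1 (−0.09) was not called. Ccn2 averaged 5.64, 2.63, 10.3, 2.96 and 6.72 UMIs per 10000 in members against 11.7, 8.02, 14.6, 6.69 and 13.0 in comparison cells, lower in every sample. Of the proposed thyroid stem cell markers 3 of 11 were tested, Gata4 (0.11), Hhex (0.25) and Foxe1 (−0.11), and none was called. The simple-epithelium keratins Krt8 (0.92 ± 0.13, adjusted p = 0.00029) and Krt18 (0.46 ± 0.13, adjusted p = 0.041) rose, while Epcam (0.28), Cdh1 (0.07) and Krt19 (−0.02) were not called. Krt8 was called in 26 of 26 alternatives and Krt18 in 7 of 26, not among them the depth-matched one (adjusted p = 0.39).

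Genes of RNA processing and nuclear transport rose more often than the 4.06% of all tested genes. Of 17 splicing factors 11 rose, led by Sfpq (0.92 ± 0.13), Hnrnpa3 (0.82), Hnrnpf (0.79) and Hnrnpab (0.78). Of 12 nuclear transport genes 7 rose, led by Ran, the GTPase that directs transport and spindle assembly (1.12 ± 0.13), its partner Ranbp1 (0.86) and the export factors Cse1l (0.77) and Xpo1 (0.70). Without members high for replication genes 5 splicing factors and none of the transport genes were called, Ran at 0.61 with an adjusted p of 0.10. Ribosome biogenesis genes rose in 4 of 15 cases, Nop56 (0.58), Nhp2 (0.49), Dkc1 (0.44) and Ncl (0.42). Against depth-matched cells Dkc1 alone of these 4 passed (adjusted p = 0.0496).

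Among metabolic and protein folding lists, 6 of 17 sterol synthesis genes rose, with Idi1 (0.88 ± 0.13), Acat2 (0.80), Cyp51 (0.73) and Sqle (0.61) highest, and none fell. Of 16 cytosolic chaperones 6 rose, Hsp90aa1 (0.88 ± 0.11), the cyclophilin Ppia (0.85), Tcp1 (0.58) and the chaperonin subunits Cct6a (0.69), Cct8 (0.63) and Cct7 (0.54). In contrast, none of 16 ER folding genes rose and Pdia4 fell (−0.51 ± 0.13, adjusted p = 0.029, and 0.31 against depth-matched cells). Of 12 glycolysis genes Aldoa fell (−0.68 ± 0.16, adjusted p = 0.016, lower in 4 of 5 samples). Over all tested genes, 4.06% were higher and 2.01% lower.

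Lysosomal and metal-binding genes were mixed or lower. The lysosomal protease Ctsl, a cathepsin that can digest thyroglobulin, averaged 13.4, 13.3, 16.2, 10.2 and 7.28 UMIs per 10000 in members and 23.1, 16.9, 24.8, 16.6 and 17.5 in comparison cells. All member values were below all comparison values, and the difference was −0.72 ± 0.11 (adjusted p = 0.0008). Ctsb fell (−0.50 ± 0.09) and Ctse rose (0.68 ± 0.13), and the other 5 of 8 tested did not pass. Over all tested genes, 4.06% rose and 2.01% fell. The metallothioneins Mt1 (−0.53 ± 0.08, adjusted p = 0.00047) and Mt2 (−0.58 ± 0.11) both fell. None of 5 MHC class I genes and none of 7 mitochondrially encoded genes was called.

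Outside all lists, the largest rises were those of Pbk, a mitotic kinase (1.27 ± 0.14), Fbxl2, an F-box protein (1.25 ± 0.14), Pik3c3, the class III phosphatidylinositol 3-kinase (1.22 ± 0.13), Ptms, parathymosin (1.19), Calm2, a calmodulin gene (1.04), Psat1, an enzyme of serine synthesis (1.03), Mrps28 (0.99), Ccdc34 (0.97), Trim59 (0.96) and Cip2a, an inhibitor of the phosphatase PP2A (0.94). Pbk, Trim59 and Cip2a, with mean levels of 0.0327, 0.151 and 0.0234 UMIs per 10000 in comparison cells, entered the test only through their level in members. Calm2 averaged 6.68, 4.38, 5.55, 4.88 and 6.40 UMIs per 10000 in members and 2.06 to 3.06 in comparison cells, without overlap. Pik3c3 averaged 2.95, 5.32, 2.16, 8.03 and 2.05 in members and 0.785, 2.39, 1.01, 2.33 and 0.576 in comparison cells, so it rose within each sample while the ranges overlapped. The Mrps28 locus contains a pseudogene on the same strand that shares 24.4% of its 31-base words with Ptma, which rose by 1.20, so reads of Mrps28 are uncertain.

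The largest falls outside the lists were those of Trpm3, a cation channel (−1.09 ± 0.13), Ccn4, a matricellular protein (−1.09 ± 0.18), the nuclear noncoding RNA Neat1 (−1.05 ± 0.12), Elobl (−1.01 ± 0.28), Scg5 (−1.01), Kctd12 (−0.999), Sash1 (−0.96), Mest (−0.93), the nuclear receptor Rora (−0.93) and the nuclear noncoding RNA Malat1 (−0.92 ± 0.13). Neat1 averaged 1.72, 1.52, 2.76, 1.49 and 2.97 UMIs per 10000 in members and 5.25, 3.20, 7.25, 3.56 and 5.21 in comparison cells, and no values overlapped. Malat1 averaged 4.71, 17.0, 4.39, 19.7 and 6.62 against 15.7, 27.4, 9.10, 29.7 and 11.4. It was lower in members of every sample, while late sample 2 and early sample 1 were highest in both classes. Ccn4 was at 0 in the members of late samples 1 and 3 and of early sample 2. Elobl was at 0 in the members of late sample 1, its differences were −2.81, −0.09, −0.62, −0.10 and −1.45 in the 5 samples, and it was called in 12 of 26 alternatives, not among them the one without late sample 1.

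Passage changed little that could be detected with 3 late and 2 early samples. The interaction between class and passage was called for 1 of 8993 genes (0.0111%), with 450 genes at an unadjusted p below 0.05. Late and early members differed in 2 genes (0.0222%), with 550 at an unadjusted p below 0.05. Without early sample 1 these counts were 8 and 30. Cep128, a gene of the centriole, gave the interaction (−2.24 ± 0.31, adjusted p = 0.016) and was lower in late than in early members (−2.11 ± 0.34, adjusted p = 0.033). It averaged 0.984, 1.58 and 0.724 UMIs per 10000 in late members and 3.97 and 9.67 in early members, against 1.21 to 2.45 in comparison cells. It was called in 15 of 25 alternatives for the interaction, with adjusted p up to 0.95, and in 14 of 25 for late against early members, with adjusted p up to 0.9996. Its level followed the well barcode across plates (correlation 0.40 over 1613 pairs of cells sharing a barcode), and the part of this in the result was not tested. The pseudogene Rpsa-ps10 was higher in late members (2.63 ± 0.34, adjusted p = 0.0028), at 8.52, 5.84 and 6.65 against 0.279 and 1.35, and it differed likewise in comparison cells (6.69, 5.45 and 6.82 against 0.324 and 0.799).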

How the data were processed

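Values deposited by the authors cover 30879 genes in 2590 cells and are the natural log of 1 plus UMIs per 10000 UMIs of the cell. The submitters' processing notes name Trim Galore 0.4.3, STAR 2.5.3a, Seurat and GRCm38 (mm10); the counting tool and annotation are not given in the sources used here. UMIs were recovered by undoing the log and dividing each cell by its smallest value, which gave whole numbers within 0.01 for 100% of values. Groups followed the labels' passage stage. Organoid samples held 1985836 to 4703472 UMIs, and intervals for shares are exact (Clopper-Pearson) and cover counting error only.

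Differences were fitted in limma 3.58.1 (R 4.3.3, trended empirical Bayes) across genes with a mean of at least 0.2 UMIs per 10000 over the 10 class means, with a pseudocount of 0.5, the sample as a block, the 9 rule genes left out and Benjamini-Hochberg adjustment over all genes, threshold 0.05. A fold on this scale understates changes of low genes. The fit was tested on simulated data. Because the unit is a log value, no count model was run. Alternatives covered pseudocount, filters, scaling, depth, class limits and each sample left out.

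Named genes were fixed regulators and thyroid genes, up to 4 called genes per list with the largest difference, the 10 largest rises and 10 largest falls outside the lists with 1 sign in all 5 samples (predicted genes, pseudogenes and ribosomal protein genes left out) and up to 5 called genes for passage. Other list genes are given as examples chosen after their values were seen. The members and the 34 gene lists were chosen with earlier results of these data known. Promoter windows are RefSeq's (GRCm38.p6), matched by symbol. Spike-ins were not used here.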

Additional observations from a re-analysis of the deposited data

Results flagged for a closer look

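Of 99 sets of 5 sample values tested for 1 sample apart from the rest (Dixon's test), 5 had one, and chance gives about 1 in 20. Late sample 3 stood apart for Cdkn1a (a class difference of 0.0028 on the log2 scale, against 0.61 to 0.81 in the other samples), for Ckap2 (2.51, against 2.02 to 2.12) and for Mest (−1.83, against −0.91 to −0.56). Early sample 2, with 14 members, stood apart for Cenpe (0.37, against 1.57 to 1.90) and for Cct8 (1.11, against 0.45 to 0.64).

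The class difference of Cep128 differed between passages by −2.24 in the interaction test, being −0.27, −0.51 and −0.48 in the late samples and 1.21 and 2.44 in the early samples, and this gene's level followed the well barcode.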

How the results depend on the processing

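Of 2483 values of 98 named genes under 26 alternatives, 2228 kept their direction and side of the threshold, 248 lost the call, 1 gained it and 6 changed sign: Pcna (−0.21) and Mcm6 (−0.23) without members high in replication genes, Pax8 with matched depth (0.043 in 5 and 0.083 in 4 samples) and without those members (0.047), and Foxe1 without those members (0.091). The 546 genes called became 262 with cells thinned to 3000 UMIs, 306 with comparison cells matched in depth and 218 in the 4 samples where the match was complete, 305 with the filter at 1, 166 with no filter (29040 genes tested), 274 without late sample 2 and early sample 1 together and 166 without members high in replication genes. The last 2 and the match in 4 samples were chosen after seeing the data. With 1 sample left out the count ran from 276 to 459. No called gene changed sign under any alternative except 4 without members high in replication genes. As each sample supplies both classes, the paired fit with the sample as a replicate block is the one reported; with no replicate block 224 genes were called, all among the 546.

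The interaction with passage (1 gene) gave 0 with at least 3 of 9 rule genes, with matched depth in 5 or 4 samples, with none of 9 in comparison cells, with no filter and without members high in replication genes, 2 with thinned cells, 3 with weights by cell number, 0 to 8 with 1 sample left out and 10 without late sample 2 and early sample 1. Late against early members (2 genes) gave 1 with summed UMIs, with at least 3 of 9, with centring, with the filter at 1, with a pseudocount of 0.1, with weights and without members high in replication genes, 0 with no filter, 0 to 30 with 1 sample left out 21 in the 4 samples matched in depth and 56 without late sample 2 and early sample 1. The cause was not tested; where 1 early sample remains, it is assumed to vary like the late ones. The share of members, late minus early, ran from −14.4 to 5.97 percentage points with 1 sample left out, changing sign without early sample 1 (5.97).

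Limits: members number 14 in 2 samples, differ in depth from comparison cells, and were chosen on genes of the same cells.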
